A study of Mus musculus with 23 samples.

Results

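Medulloblastoma allografts collected 24 h after treatment with NVP-LDE225 were compared with allografts of mice given vehicle, on 3 expression arrays per group. The arrays were chosen by their descriptions and by no measured value, and these 6 belong to a series of 23 arrays. All tumours derived from mice of genotype Ptch+/-HIC+/-, whose dissociated tumour cells were implanted under the flank skin of nu/nu nude mice. NVP-LDE225, an antagonist of the Hedgehog transducer Smoothened, was dosed at 40 mg/kg, and the tumours of both groups are labelled sensitive to it. The vehicle arrays carry no stated time. The remaining arrays hold vehicle at 4 h (2 arrays), drug at 4, 8 and 48 h (3 each) and drug-resistant tumours at 40 and 160 mg/kg (3 each). For 24 h replicate 1, another label calls the tumour resistant while its status field says sensitive, and the description was followed. No label states that replicates came from separate animals. The p-values therefore measure only how far these samples spread, which may be technical.

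Hedgehog signalling starts when a ligand binds the receptor Ptch1, which otherwise keeps Smoothened inactive. Active Smoothened lets the Gli transcription factors switch on target genes, among them Gli1, Ptch1 and Hhip, whose products feed back on the pathway. In the growing cerebellum this signal drives division of granule neuron progenitors, which later leave the cell cycle, extend axons and mature, and loss of Ptch1 in this lineage can give medulloblastoma.

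Signals are MAS5 intensities, and differences are 24 h minus vehicle on the scale of log2(signal + 16), which understates changes of dim genes. Each gene entered by 1 probe set, and "rose", "fell" and "called" mean a limma adjusted p under 0.05. The granule lineage factors Atoh1, at 3784 to 4705, and Zic1, at 4100 to 9201, were bright on all 6 arrays. The median signal ranged from 41.0 to 46.0 at 24 h and from 36.0 to 39.3 on the vehicle arrays.

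Some features of these arrays stood apart from the treatment contrast. The vehicle arrays differed from the 4 h vehicle arrays in 43 of 35069 probe sets (0.123%). By gene, 20 were higher (0.134%) and 10 lower (0.0668%) on the vehicle arrays. Of those 30 genes, 25 were called at 24 h against vehicle, beside 34.1% of all genes, and 18 of the 25 were not called against the 4 h vehicle. Both contrasts share the vehicle arrays by which the 30 genes were picked, so these counts are a description. The clearest was Ccdc138, which read 2572, 2104 and 2664 on the vehicle arrays and 8.4 to 41.1 on all 14 short-term drug and 4 h vehicle arrays. Of the 6 resistant arrays, 5 read 2296 to 2768 for Ccdc138 and the 160 mg/kg replicate 2 read 42.5. Zfand6 and Pus10 split the arrays in the same way, with Zfand6 high and Pus10 low on the vehicle arrays, except that the 160 mg/kg replicate 2 read 6648 for Zfand6, between the groups. The fall of Ccdc138 at 24 h (-6.07 ± 0.79, standard error, limma adjusted p = 2.3e-06) was therefore -0.35 against the 4 h vehicle (limma adjusted p = 0.83). The vehicle and 4 h vehicle arrays also share no run of consecutive identifiers in the sample titles. The labels do not say whether the vehicle arrays and the drug arrays came from the same tumour line or passage. A difference of that kind cannot be told apart from the treatment in values against these vehicle arrays, so many results are also given against the 4 h vehicle.

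**Figure D1:**
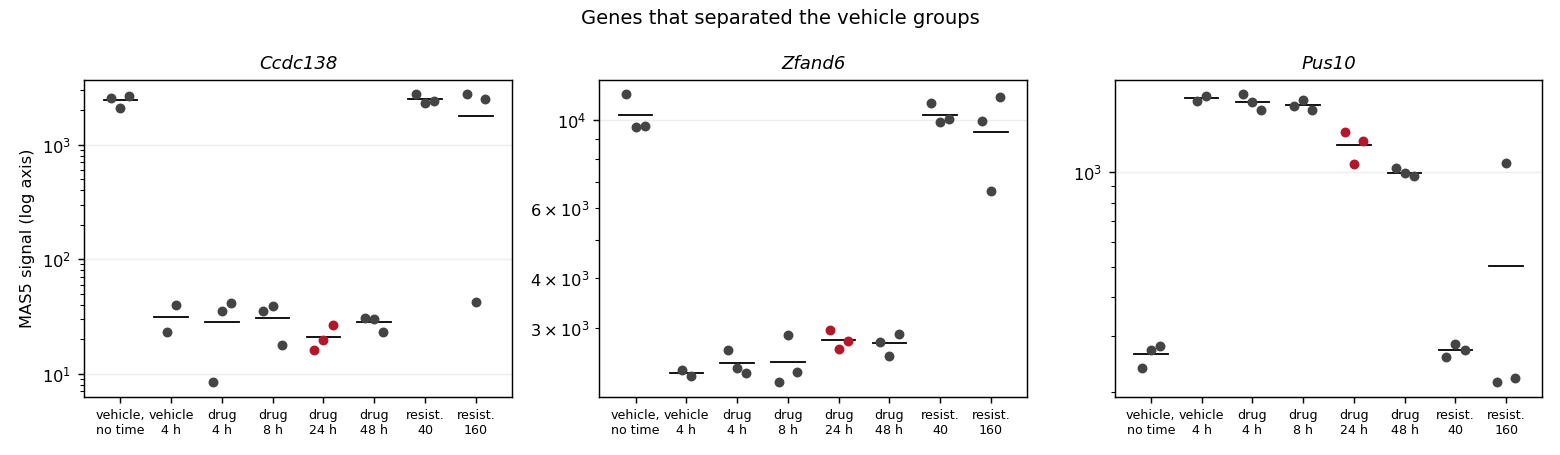
MAS5 signal (log axis) of Ccdc138, Zfand6 and Pus10 on all 23 arrays by group, with 1 point per array, a bar at each group mean and the 24 h arrays in red. The vehicle arrays with no stated time sit with 5 of the 6 resistant arrays, away from the 4 h vehicle and short-term drug arrays.

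The 24 h arrays also differed from the vehicle arrays in a sign of RNA quality and in host tissue. The log2 difference between 3' and 5' actin control probe sets, which grows as RNA degrades, was 1.41 to 1.83 at 24 h and 1.00 to 1.08 on the vehicle arrays, and that of Gapdh was 0.42 to 0.79 and -0.24 to -0.11. Summed signal of 33 skeletal muscle markers was 17188 to 23287 at 24 h, while the vehicle arrays spanned 1388 to 16307, the highest being vehicle replicate 2. The part of these differences in the results below was not tested. In bulk tissue, fewer cells of a type and less RNA per cell cannot be told apart.

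At 24 h, 2952 of 14980 tested genes were called higher (19.7%) and 2152 lower (14.4%), with a median difference over all genes of 0.10. Counts against vehicle in the gene groups below stand beside these shares. Large changes were mostly falls: 83 genes fell and 35 rose by over 3 on the log2 scale, although 1050 rose and 744 fell by over 1. With the 4 h vehicle as control, 2369 genes were called higher (15.8%) and 1692 lower (11.3%). These include 1903 of the rises and 1512 of the falls, and both counts share the 24 h arrays. By probe set, 5814 were higher and 4368 lower, a split that quantile normalization moved to 4968 and 4797. Without 24 h replicate 1, whose labels conflict, 8434 probe sets were called in place of 10182. In every fit that left out 1 of the 6 arrays, 1797 rises and 1555 falls remained called.

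The 12 largest rises whose groups did not overlap and whose call held in every such fit were led by a pair of neighbouring genes. Chrna3, encoding the alpha3 subunit of the nicotinic acetylcholine receptor, read 2042, 2180 and 2240 at 24 h against 80.1, 78.7 and 61.0 on the vehicle arrays (4.61 ± 0.37, limma adjusted p = 1.1e-09). Chrnb4, encoding the beta4 subunit and adjacent to Chrna3 in RefSeq, read 800, 908 and 891 against 32.2, 24.8 and 21.4 (4.39 ± 0.45, limma adjusted p = 6.2e-08). Both genes lay far above every vehicle array, and both were already at intermediate levels at 8 h, with means of 723 for Chrna3 and 273 for Chrnb4. The third gene of that cluster, Chrna5, was near background, at a mean of 18.6 against 4.30, and was not called (0.75).

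Igfbp5, an insulin-like growth factor binding protein, read 8034, 8040 and 6337 against 374, 467 and 397 (4.12 ± 0.44, limma adjusted p = 1.3e-07). Its level at 24 h was also above that at 48 h, where the arrays read 1402, 2132 and 1515 (2.16 ± 0.44, limma adjusted p = 0.0011). The other large rises were Dcx, a microtubule protein of migrating neurons (4.19), Pdzrn3 (4.11), the brain proteoglycan Bcan (4.07), the axonal adhesion molecule Cntn2 (4.04), the secretory granule protein Chgb (3.92), the vessel growth factor Angpt1 (3.67), Tspan4 (3.65), B3gat1, which makes the HNK-1 carbohydrate (3.48), and 6330415B21Rik (3.48).

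Among the 12 largest falls were Nptx1, a secreted neuronal pentraxin (-5.78), Ccdc138 (above), Tbata (-4.47), Gli1 (-4.46), the arginine deiminase Padi2 (-4.41), the secreted Wnt inhibitor Wif1 (-4.25), the vesicular monoamine transporter Slc18a2 (-4.23), the transporter Slco3a1 (-4.23), the mitotic kinase Bub1 (-4.23), Arhgap8 (-4.11), the kinetochore protein Ndc80 (-3.95) and the cohesin acetyltransferase Esco2 (-3.94). Tbata read 120, 87.2 and 98.1 against 2748, 2566 and 2433. Wif1 read 1.1, 14.2 and 13.3 against 455, 448 and 456. Slc18a2 read 6.2, 1.1 and 13.4 against 414, 403 and 394. The 24 h arrays lay near background for these last 2 genes.

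**Figure D2:**
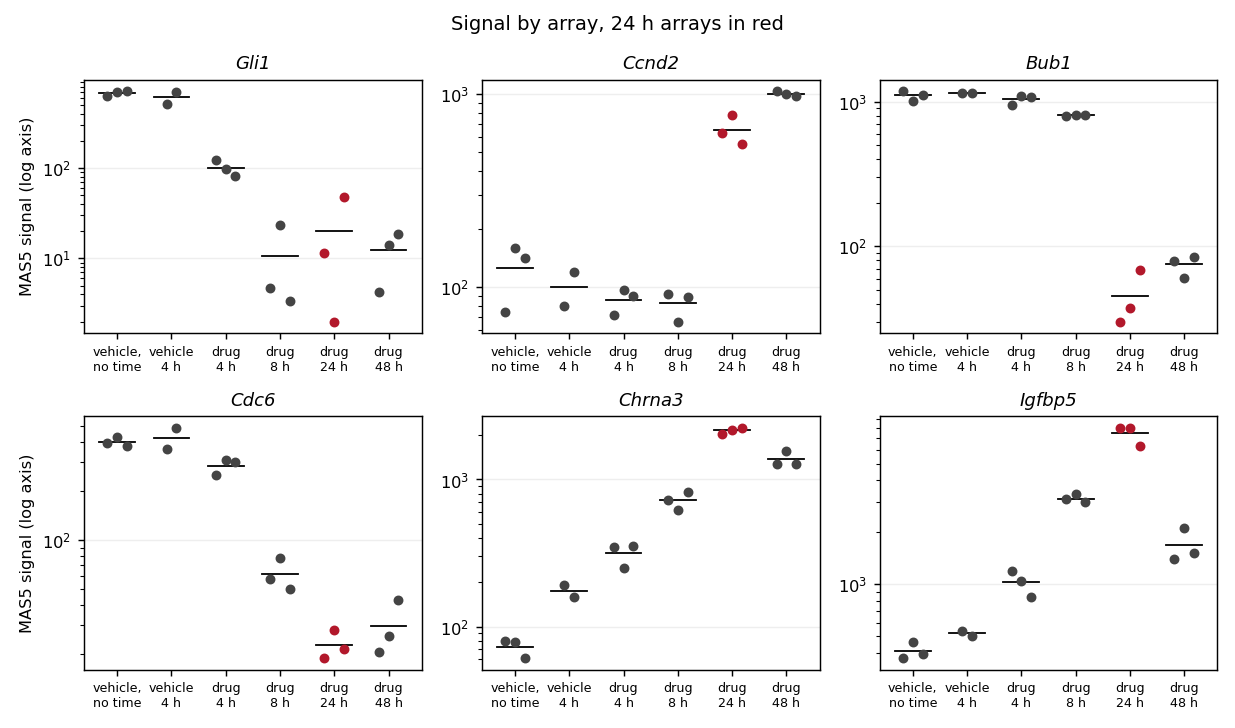
MAS5 signal (log axis) of 6 genes on the vehicle, 4 h vehicle and 4, 8, 24 and 48 h drug arrays, with 1 point per array, a bar at each group mean and the 24 h arrays in red. Gli1 was already low at 8 h, Bub1 fell between 8 h and 24 h, and Igfbp5 was highest at 24 h.

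Hedgehog targets did not move as a block. Of 16 measured targets, 8 fell, 2 rose and 6 were not called, with a median of -0.58 (-0.27 against the 4 h vehicle). Gli1, the transcription factor that amplifies the signal, read 11.5, 2.0 and 47.6 against 631, 696 and 710 (-4.46 ± 0.31, limma adjusted p = 1.1e-10). All 3 drug arrays were near background. Hhip, a decoy that binds the ligand, fell (-3.08), as did the receptor gene Ptch1 (-2.81). Ptch1 read 398, 353 and 367 against 2830, 2513 and 2796, so it kept a measurable signal. The other falls were in Fst, an activin antagonist (-2.77), the mitotic activator Foxm1 (-2.66), the G1 cyclin Ccnd1 (-2.05), the survival gene Bcl2 (-1.43) and Mycn, a driver of progenitor division (-0.48). Atoh1 read 3823, 3939 and 3962 against 4705, 3815 and 3784 (-0.06 ± 0.11) and the growth factor Igf2 10046, 11195 and 9260 against 9948, 9244 and 8542 (0.14 ± 0.12). Both overlapped the vehicle arrays.

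Ccnd2, another G1 cyclin often counted as a Hedgehog target, rose. It read 625, 779 and 548 against 73.8, 159 and 141 (2.29 ± 0.37, limma adjusted p = 3.6e-05), and 6 of its 7 tested probe sets were called higher. The groups were well separated, and at 8 h Ccnd2 was still at 66.1 to 92.2 (24 h minus 8 h 2.76 ± 0.37, limma adjusted p = 9.5e-06). The second target called higher, Sfrp1, a secreted Wnt modulator, lost its call against the 4 h vehicle (0.73, limma adjusted p = 0.09).

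Of 24 measured receptors, transducers and ligands, 6 fell and 4 rose, beside 14.4% and 19.7% of all genes, with a median of 0.01. The rises were no more frequent than among all genes. Gli2, the main activating Gli factor, fell by 1.74, as did the co-receptors Boc (-1.30) and Cdon (-1.15). Spop, an adaptor that marks Gli proteins for degradation, fell (-1.40), with 627, 494 and 704 against 1592, 1744 and 1524. Stk36, a kinase of the pathway, rose by 1.17. Smo, the drug's target, read 506, 579 and 495 against 565, 666 and 551 (-0.17 ± 0.12), and the Gli inhibitor Sufu 264, 285 and 246 against 327, 255 and 317 (-0.16 ± 0.14). Neither was called, and the groups overlapped for both.

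**Figure D3:**
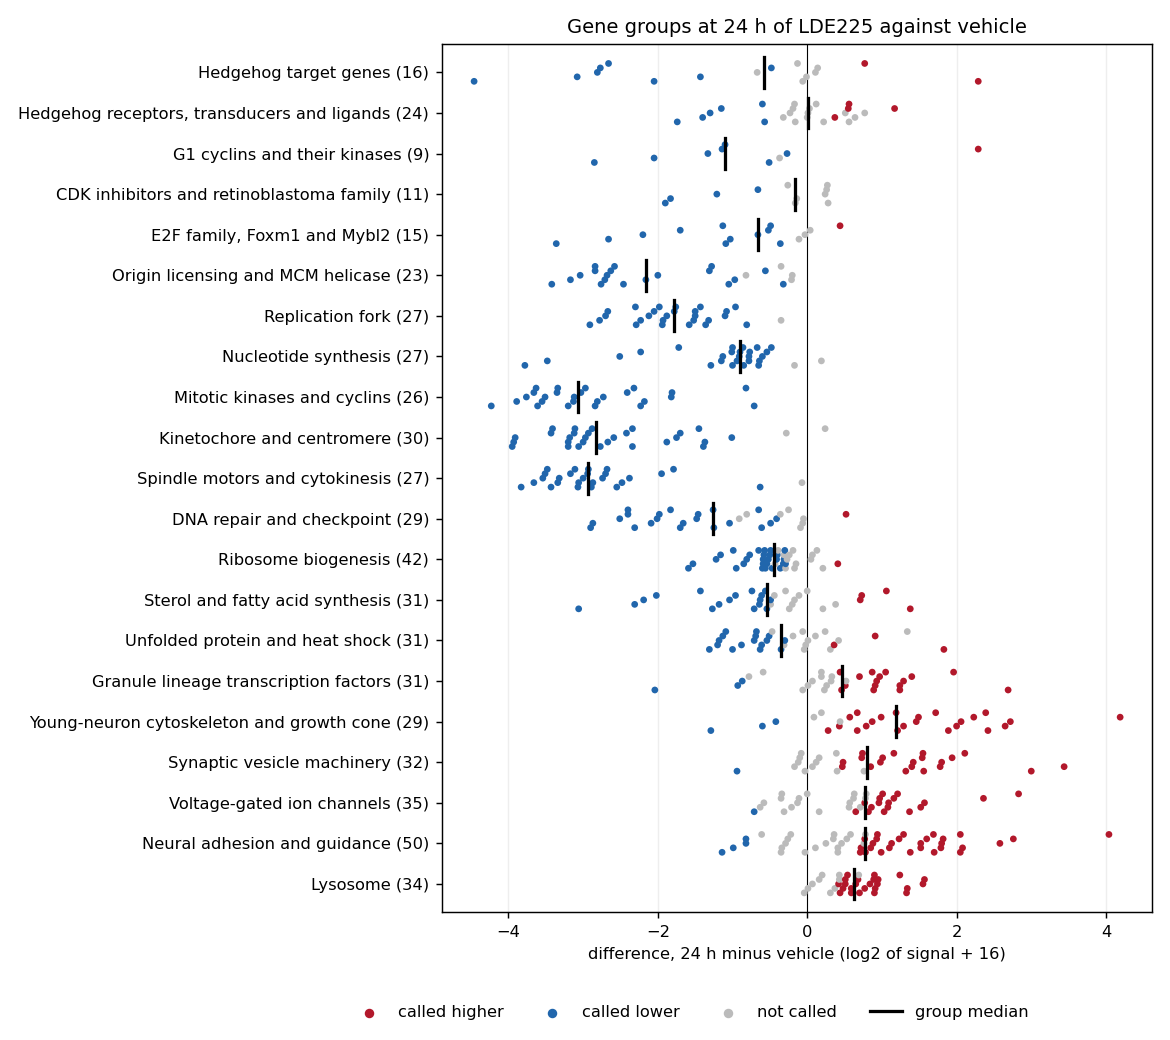
Difference between 24 h and vehicle (log2 of signal + 16) for every measured gene of 21 groups, with 1 point per gene, red where called higher, blue where called lower and grey where not called, and a black bar at each group median. The number of measured genes stands in brackets. Mitotic groups have medians near -3, and young-neuron cytoskeleton genes a median of 1.19.

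Genes of mitosis fell almost without exception. All 26 measured mitotic kinases and cyclins fell, with a median of -3.07, as did 28 of 30 kinetochore and centromere genes (-2.83) and 26 of 27 spindle motors and cytokinesis genes (-2.94). Cdk1, the kinase that starts mitosis, read 135, 81.9 and 183 against 2137, 2058 and 2125 (-3.89 ± 0.21, limma adjusted p = 1.6e-12). Ube2c, the ubiquitin-conjugating enzyme of the anaphase-promoting complex, read 212, 154 and 198 against 2731, 2985 and 2485, and Cdc20, the activator of that complex, 329, 231 and 270 against 3749, 3309 and 3527. No array of one group came near the other for these 3 genes. Numa1, a spindle pole protein with a further role in interphase nuclei, was the spindle gene not called (-0.07), and against the 4 h vehicle it was higher (0.40, limma adjusted p = 0.032). Zwint and Cenpt were the kinetochore genes not called, at -0.28 and 0.24.

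Replication genes fell by less. Of 23 origin licensing and helicase genes 19 fell (median -2.16), and of 27 replication fork genes 26 fell (-1.78). Cdc6, which loads the helicase onto origins, read 18.9, 28.0 and 21.6 against 394, 428 and 377 (-3.42 ± 0.20, limma adjusted p = 4.1e-12). Mcm6, a helicase subunit, read 654, 691 and 656 against 2755, 2899 and 2519 (-2.0 ± 0.14, limma adjusted p = 1.7e-10). Cdc6 thus reached background, whereas Mcm6 kept a clear signal. The origin recognition genes Orc3 and Orc4, at -0.20 and -0.21, were not called. Of 29 DNA repair and checkpoint genes 21 fell, led by Rad51ap1 (-2.90) and Brca1 (-2.87), both of homologous recombination, while the checkpoint kinase Atr was not called (-0.36).

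Promoters of these genes are shown because their groups fell together. RefSeq windows of the 250 bases before the start site (GRCm38.p6) were searched on both strands for the CHR element TTTGAA, the CCAAT box CCAAT and the E2F letters TTTCCCGC or TTTGGCGC. Copies may overlap one another. In the sequences that follow, capitals mark these motifs, 5' to 3' on the gene's strand. Ube2c lies at chr2:164769679-164769928 on the plus strand, Cdc20 at chr4:118437344-118437593 on the minus strand, Mcm6 at chr1:128359706-128359955 on the minus strand and Cdc6 at chr11:98907901-98908150 on the plus strand.
Ube2c: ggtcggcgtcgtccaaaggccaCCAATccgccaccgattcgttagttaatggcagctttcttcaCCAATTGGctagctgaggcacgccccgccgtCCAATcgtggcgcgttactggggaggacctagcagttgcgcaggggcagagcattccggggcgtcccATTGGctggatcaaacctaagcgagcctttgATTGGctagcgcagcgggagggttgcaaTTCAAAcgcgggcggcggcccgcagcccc
Cdc20: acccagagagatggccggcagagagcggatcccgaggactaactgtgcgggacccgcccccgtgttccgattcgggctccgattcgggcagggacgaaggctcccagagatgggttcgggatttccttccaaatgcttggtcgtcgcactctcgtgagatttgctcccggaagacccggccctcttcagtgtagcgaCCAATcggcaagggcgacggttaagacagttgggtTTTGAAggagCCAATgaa
Mcm6: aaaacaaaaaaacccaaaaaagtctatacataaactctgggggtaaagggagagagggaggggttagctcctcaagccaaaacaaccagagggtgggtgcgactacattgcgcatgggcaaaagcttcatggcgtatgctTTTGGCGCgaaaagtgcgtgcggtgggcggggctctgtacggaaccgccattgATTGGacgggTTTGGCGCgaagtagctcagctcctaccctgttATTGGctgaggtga
Cdc6: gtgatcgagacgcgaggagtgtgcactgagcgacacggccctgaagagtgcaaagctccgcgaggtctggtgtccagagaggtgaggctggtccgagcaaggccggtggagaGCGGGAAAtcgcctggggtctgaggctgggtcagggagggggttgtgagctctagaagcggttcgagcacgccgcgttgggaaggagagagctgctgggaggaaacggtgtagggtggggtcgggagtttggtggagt

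The Ube2c window held 1 CHR and 6 CCAAT copies, and that of Cdc20 1 and 2. The Mcm6 window held 2 E2F and 2 CCAAT copies, and that of Cdc6 held 1 E2F copy. The CCAAT box stood in 16 of 20 windows of mitotic kinases and cyclins (80%) and in 34.5% of all 27025 windows, and the CHR element in 7 of those 20 (35%) and in 16.3% of all. The E2F letters stood in 6 of 18 licensing windows (33.3%), in 0 of the 20 windows of mitotic kinases and cyclins and in 1.35% of all. With kinetochore, spindle, condensin and cohesin genes added, they stood in 7 of 84 windows (8.33%). Among windows of tested genes the shares were 10.8% for the CHR element, 35.7% for the CCAAT box and 2.35% for the E2F letters. Of the 26 mitotic and 23 licensing genes, only those 20 and 18 had a window. A match describes the letters only.

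The G1 machinery moved in a mixed way. Of 9 G1 cyclins and kinases 7 fell and 1, Ccnd2, rose. The falls included Ccne2, the cyclin of S phase entry (-2.85), its partner kinase Cdk2 (-1.14) and the cyclin D partner Cdk6 (-1.10). Of 11 CDK inhibitor and retinoblastoma family genes 4 fell. The inhibitor Cdkn1b read 1440, 1130 and 1424 against 1361, 947 and 1020 (0.27 ± 0.16), and Rb1, the brake on E2F, 650, 653 and 653 against 690, 663 and 810 (-0.14 ± 0.12). Neither was called. Rbl1, a relative of Rb1, fell by 1.90. Of 15 E2F and partner genes 11 fell, or 7 without vehicle replicate 2, led by the repressor E2f8 (-3.36) and Foxm1 (-2.66). E2f3 rose by 0.44, but its value against the 4 h vehicle was -0.05 (limma adjusted p = 0.88).

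Nucleotide synthesis fell with replication. Of 27 genes 25 fell (median -0.90), most steeply the ribonucleotide reductase subunit Rrm2, with 240, 176 and 198 against 2963, 3095 and 2923, and the salvage enzyme Tk1 (-3.48). The enzymes of purine synthesis moved less, among them Paics (-1.0), and Atic was not called (0.19). In chromatin copying, DNA methylation and PRC2, 18 of 27 genes fell and 1 rose. The falls included Hmgb2, a chromatin protein of dividing cells (-3.47), the replication-coupled methylation factor Uhrf1 (-3.53) and the PRC2 enzyme Ezh2 (-1.08), while the PRC2 partner Jarid2 rose by 0.82.

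Growth and metabolism genes fell in part. Of 42 ribosome biogenesis genes 28 fell (median -0.45), led by the snoRNP protein Nop58 (-1.59) and the RNA polymerase I subunit Polr1b (-1.53). Of 21 cytoplasmic ribosomal protein genes 2 fell, and the median was 0.00. Neither fall was called against the 4 h vehicle, where 2 ribosomal protein genes were higher and the median was 0.15. Of 31 sterol and fatty acid genes 17 fell and 4 rose. Fdps, which makes farnesyl diphosphate, read 96.3, 98.6 and 137 against 1027, 1122 and 940 (-3.06 ± 0.23, limma adjusted p = 2.6e-10), and the lipogenic regulator Srebf1 580, 522 and 504 against 2078, 2175 and 2417. The groups did not overlap for either gene. The cholesterol exporters Abca1 (1.38) and Abcg1 (1.06) moved in the other direction. Fasn, which builds fatty acids, was not called (0.00).

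Of 30 glycolysis and hypoxia genes 12 fell and 3 rose. Hk2, the hexokinase of growing cells, read 160, 171 and 141 against 906, 852 and 925 (-2.39), and Ldha, which makes lactate, 1412, 2084 and 1929 against 5965, 3617 and 4306 (-1.34). The muscle-type Pfkm and the neuronal glucose transporter Slc2a3 rose by 1.10 and 1.36, but Slc2a3 was 0.45 against the 4 h vehicle (limma adjusted p = 0.22). Of 31 stress and chaperone genes 16 fell and 3 rose (1 without vehicle replicate 3, 5 with only the compared arrays fitted). The endoplasmic reticulum chaperone Hspa5 fell by 0.61 and its partner Sdf2l1 by 1.31, while the small heat shock protein Hspb1 rose by 1.83. Of 35 respiratory chain genes 15 fell (median -0.27), and 5 did so against the 4 h vehicle (median -0.21). Ndufs4 lost its call there (-0.55, limma adjusted p = 0.052).

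Genes of young neurons rose. Of 29 cytoskeleton and growth cone genes 23 rose and 3 fell, with a median of 1.19 (0.69 against the 4 h vehicle). Gap43, a growth cone protein, read 571, 632 and 737 against 86.0, 111 and 62.3 (2.72 ± 0.32, limma adjusted p = 5.7e-07), and the neurofilament protein Ina 420, 542 and 433 against 65.1, 60.1 and 55.6 (2.65 ± 0.36, limma adjusted p = 3.9e-06). The 3 that fell were Dpysl4 (-1.29), Dclk1 (-0.42), whose call was lost in a fit that left out 1 array (limma adjusted p = 0.15), and Stmn1 (-0.60), a microtubule destabiliser also abundant in dividing cells. Stmn1 read 4606, 5136 and 4566 against 7398, 7593 and 6762.

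Of 32 synaptic vesicle genes 20 rose (median 0.8), with 13 rising against the 4 h vehicle (median 0.7). Snap25, a membrane fusion protein, read 2472, 2503 and 2707 against 265, 326 and 331 (3.00 ± 0.30, limma adjusted p = 5.2e-08). Slc17a6, a vesicular glutamate transporter, read 228, 237 and 215 against 6.0, 5.2 and 8.2 (3.44 ± 0.28, limma adjusted p = 1.6e-09). Slc17a6 left background on all 3 drug arrays, while the GABA transporter Slc32a1 stayed there, at a mean of 10.4 against 12.7. Of 13 secretory granule genes 7 rose, led by Chgb and Scg3 (2.63).

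Of 35 voltage-gated channel genes 17 rose, or 9 against the 4 h vehicle, 10 without vehicle replicate 2 and 11 without 24 h replicate 2. Their median was 0.77, and 0.43 against the 4 h vehicle. The potassium channel Kcna2 read 644, 645 and 717 against 84.1, 69.0 and 88.2 (2.83 ± 0.23, limma adjusted p = 1e-09). Of 16 glutamate receptor genes 5 rose, beside 19.7% of all genes. Against the 4 h vehicle 3 rose, not far from the share of all genes there (15.8%). The median of these receptor genes was 0.25, and 0.46 against the 4 h vehicle. Gria2, an AMPA receptor subunit, rose by 1.90 but its value against the 4 h vehicle was 0.91 (limma adjusted p = 0.19). Grin2c, an NMDA receptor subunit, fell by 0.89 and was -0.16 against the 4 h vehicle (limma adjusted p = 0.52).

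Of 50 adhesion and guidance genes 28 rose and 4 fell (2 against the 4 h vehicle). Robo2, a receptor for Slit guidance cues, read 203, 312 and 239 against 23.3, 31.2 and 29.8 (2.58 ± 0.23, limma adjusted p = 7.2e-09), and was also above its level at 48 h (1.07 ± 0.23, limma adjusted p = 0.0017). Dcc, a netrin receptor, rose by 1.52. Cadm1, a synaptic adhesion molecule, fell by 0.82.

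Of 31 granule lineage factors 16 rose and 3 fell. Barhl1, a factor of granule cells, read 1693, 1769 and 1497 against 257, 233 and 239 (2.69 ± 0.29, limma adjusted p = 1.5e-07), Lhx1 rose by 1.96 and Sox4 by 1.40. The progenitor factors Sox1 and Sox2 fell by 2.04 and 0.93, and Sox1 lost its call in a fit that left out 1 array (limma adjusted p = 0.055). Only 1 of these factors fell without 24 h replicate 1. Of 20 proneural, ID and HES factors 10 rose and 2 fell. Nhlh1, a factor of early postmitotic granule neurons, read 975, 1186 and 1094 against 436, 401 and 414, and Neurod1 rose by 3.33.

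Of 25 neuronal RNA-binding genes 11 rose and 6 fell. The neuronal proteins Elavl4 and Nova2 rose by 2.22 and 2.18. Nova2 read 336, 383 and 318 against 81.5, 48.9 and 64.3. Ptbp1, a repressor of neuronal exons, read 1401, 1320 and 1294 against 1981, 2298 and 1945 (-0.62 ± 0.11, limma adjusted p = 0.00014).

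Of 23 Notch genes 7 rose and 6 fell, with 4 rising against the 4 h vehicle and 4 without vehicle replicate 1. Hey1 read 733, 847 and 743 against 183, 198 and 134 (2.09 ± 0.39, limma adjusted p = 0.0002), while Hes1, another repressor downstream of Notch, read 78.8, 81.8 and 94.1 against 269, 323 and 237 (-1.53 ± 0.18, limma adjusted p = 6.7e-07). The receptor Notch2 (-1.5) and the ligand Jag1 (-1.40) fell. Of 35 Wnt genes 7 fell and 4 rose, counts not far from the shares of all genes (14.4% lower and 19.7% higher), and 4 and 3 did so against the 4 h vehicle. Beside Wif1, the ligand Wnt4 fell by 2.63 and the receptor Fzd1 by 2.02.

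Of 20 genes of the insulin-like growth factor system 7 rose and 3 fell (1 against the 4 h vehicle), beside 19.7% and 14.4% of all genes. The falls were thus not far from the share of all genes. Beside Igfbp5, the binding proteins Igfbp2 (2.12) and Igfbp4 (1.66) and the PI3K subunit Pik3r3 (1.72) rose, while the adaptor Irs1 fell by 1.04, with 2792, 2584 and 2558 against 5216, 5978 and 5192. Of 31 BMP, activin and TGF-beta genes 5 rose and 6 fell, again not far from those shares. The ligand Tgfb3 rose by 2.07, with 294, 224 and 249 against 31.5, 60.7 and 57.9, and the ligand Tgfb1 fell by 2.26, with 140, 95.5 and 182 against 711, 792 and 630. The 4 h vehicle arrays read 297 and 358 for Tgfb1, so its fall was -1.18 against them (limma adjusted p = 0.0014).

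Of 22 MAPK feedback and PEA3 genes 9 fell and 4 rose (1 against the 4 h vehicle), beside 14.4% and 19.7% of all genes. The rises were no more frequent than among all genes. Etv4, a factor induced by growth factor signals, fell by 1.82, the feedback inhibitor Spry4 by 1.41 and the phosphatase Dusp6 by 1.03. Of 13 MYC network genes 5 rose (3 without 24 h replicate 2) and 2 fell, the falls not far from the share of all genes. Mxd3, an S phase partner of Max, fell by 2.99, with 38.4, 23 and 56.6 against 413, 438 and 384, and Mxd4, an antagonist of MYC, rose by 1.31.

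In the BCL2 family 6 of 16 genes rose and 4 fell (2 against the 4 h vehicle and 2 without 24 h replicate 2). The pro-death gene Bcl2l11 read 1637, 2252 and 1834 against 665, 527 and 770 (1.53 ± 0.16, limma adjusted p = 5.6e-08), and it was above its level at 48 h (0.90 ± 0.16, limma adjusted p = 0.00019). Its relatives Bmf and Bbc3 rose by 1.21 and 1.06, but Bbc3 was 0.42 against the 4 h vehicle (limma adjusted p = 0.32). Bok, another pro-death member, fell by 2.05. Of 24 p53 pathway genes 5 rose and 5 fell, close to the shares of all genes, and 2 and 3 did so against the 4 h vehicle. Without 24 h replicate 2, vehicle replicate 1 or vehicle replicate 3, the falls numbered 2, 3 and 3. The p53 target Cdkn1a fell (-0.66) but lost its call in a fit that left out 1 array (limma adjusted p = 0.076).

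Markers of host and other cells moved as well. Of 28 macrophage and microglia markers 15 rose, and their summed signal was 8080 to 12829 at 24 h, 3004 to 5659 on the vehicle arrays and 43423 to 60343 at 48 h. The scavenger receptor Msr1 read 791, 473 and 679 against 51.5, 52.1 and 73.2 (3.13 ± 0.23, limma adjusted p = 1.7e-10). Its difference from 48 h was -0.15 ± 0.23 and was not called. Lyz2, lysozyme, read 1307, 786 and 1087 at 24 h, 403, 592 and 667 on the vehicle arrays and 10720, 7973 and 10885 at 48 h, so most of its rise came after 24 h. Its call against vehicle was lost in a fit that left out 1 array (limma adjusted p = 0.18). The microglial P2ry12 stayed near background, at a mean of 11.8 against 12.9. Of 34 lysosomal genes 24 rose, led by Cd68 (1.57) and the protease Ctsb (1.55).

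Of 28 fibroblast and collagen markers 19 rose and 2 fell, with summed signals of 38091 to 47774 against 11638 to 20203. Col1a1, a collagen chain, read 3076, 2703 and 2764 against 323, 748 and 712. Mfap4, a matrix fibre protein, read 3692, 3535 and 3154 at 24 h, 475, 744 and 651 on the vehicle arrays and 671, 909 and 659 at 48 h. The 24 h arrays thus stood above both other groups. Of 22 endothelial markers 12 rose, or 7 against the 4 h vehicle (median 0.86 with either control). The count was 6 without 24 h replicate 1, 7 without vehicle replicate 1 and 6 with the run of array identifiers as a block. Of the 6 arrays, only 24 h replicate 1 lies outside the run of the vehicle arrays. Against vehicle, that block therefore sets this array aside and is no separate adjustment. The part of fibroblast and endothelial cells in other results was not tested.

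Of 33 skeletal muscle markers 27 rose (median 2.46), but 10 did so against the 4 h vehicle (median 2.01). The count was 15 with the run of array identifiers as a block, which again sets 24 h replicate 1 aside, and 16 without the eBayes trend. Leaving out 24 h replicate 1, 2 or 3 gave 19, 13 or 14. Leaving out vehicle replicate 1 or 3 gave 9 or 6, but without vehicle replicate 2 the count was 31. Acta1, muscle actin, read 2390, 2956 and 3390 against 27.8, 3128 and 61.5, so vehicle replicate 2 lay among the drug arrays and the call was lost against the 4 h vehicle (limma adjusted p = 0.21). Summed signal of 12 lymphocyte markers was 228 to 236 against 153 to 287, and the groups overlapped. Summed neutrophil signal was 135 to 223 against 105 to 134. The 4 h vehicle arrays, at 133 to 188, overlapped the 24 h arrays. Of 12 keratinocyte markers 1 fell, Krt10 (-1.26).

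Glial genes were divided. Of 16 astrocyte and glial markers 5 rose (3 against the 4 h vehicle) and 4 fell (2 without 24 h replicate 1, vehicle replicate 1 or vehicle replicate 2). The intermediate filament gene Gfap read 245, 271 and 305 against 33.2, 20.5 and 4.9 (3.11 ± 0.46, limma adjusted p = 1.3e-05). S100b, a calcium-binding protein, read 90.9, 88.9 and 71.5 against 1324, 1020 and 1358 (-3.64 ± 0.39, limma adjusted p = 1.2e-07). Both genes separated the groups fully, in opposite directions.

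**Figure D4:**
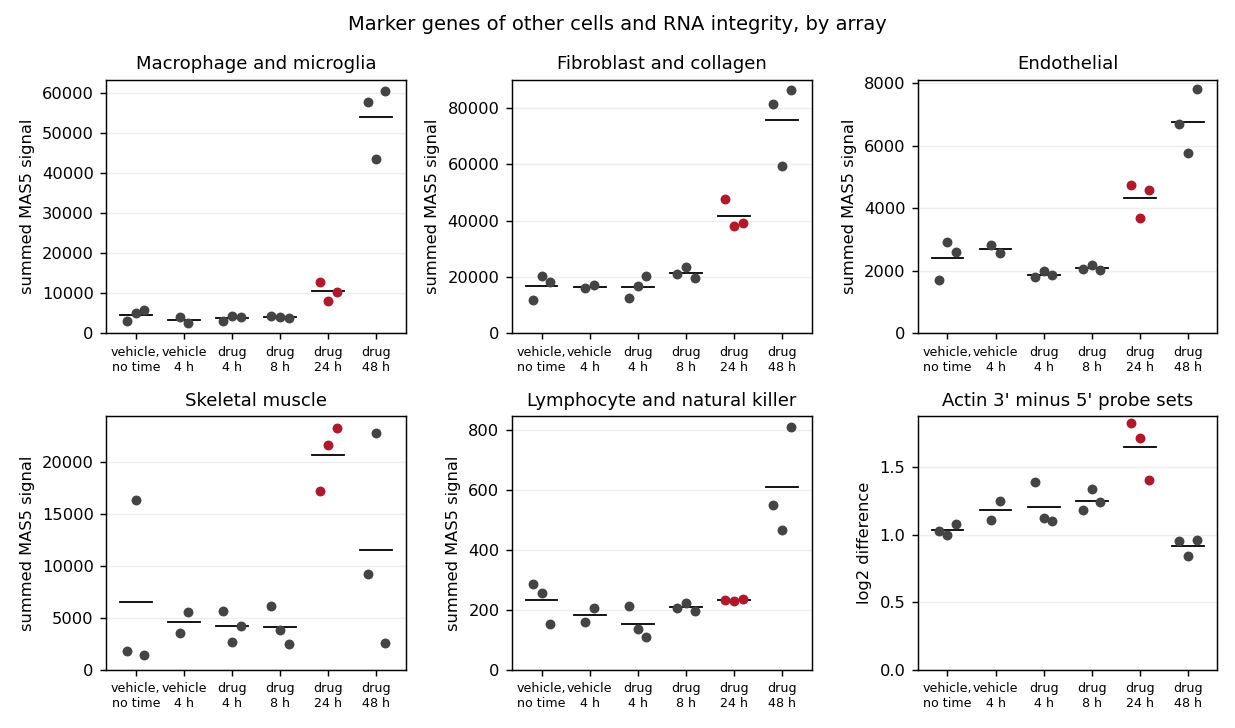
Summed MAS5 signal of 5 marker lists and the log2 difference between 3' and 5' actin probe sets on the vehicle, 4 h vehicle and drug arrays, with 1 point per array, a bar at each group mean and the 24 h arrays in red. Macrophage signal at 24 h (8080 to 12829) lies between the vehicle and 48 h arrays, muscle signal varies within groups, and the actin difference is highest at 24 h.

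The 24 h arrays were set against those at 8 h and 48 h to place these changes in time, and both contrasts share the 24 h arrays. Against 8 h, 1238 genes were higher (8.26%) and 1289 lower (8.6%). Most mitotic genes were lower than at 8 h, namely 26 of 26 kinases and cyclins, 27 of 30 kinetochore genes and 25 of 27 spindle genes. The 5 largest differences below 8 h were Ube2c (-3.96), Bub1 (-3.79), Cenpf (-3.77), Dlgap5 (-3.72) and Ect2 (-3.71). Ube2c read 3395, 3211 and 2796 at 8 h, within or above the range of the vehicle arrays. The licensing gene Cdc6 differed: it read 58.0, 77.7 and 50.5 at 8 h, so much of its fall was complete by then. The largest differences above 8 h were the muscle myosin Myh7 (2.98), which read 523, 94.4 and 622 at 24 h, Ccnd2 (2.76), Chgb (2.75), Slc17a6 (2.74) and Msr1 (2.41). With the run of array identifiers as a block, fewer probe sets differed from 8 h than the 4910 of the main fit. Of the 24 h arrays only replicate 1, whose labels conflict, shares a run with the 8 h arrays. The blocked fit thus compares that array alone with them.

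Against 48 h, 1967 genes were higher at 24 h (13.1%) and 1778 lower (11.9%). Hedgehog targets were not at their lowest: 7 of 16 were higher at 24 h. Ccnd1 read 347, 280 and 255 at 48 h against 848, 940 and 888 at 24 h, and Atoh1 1271, 1834 and 1478 against 3823, 3939 and 3962 (1.36 ± 0.11, limma adjusted p = 1.2e-08). Atoh1 therefore separated the drug groups at 48 h and 24 h but not the 24 h and vehicle groups. Gli1 was near background at both times (0.19 ± 0.31).

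Some mitotic genes were lower at 24 h than at 48 h. Of 30 kinetochore genes 10 were lower, and of 26 mitotic kinases and cyclins 5 were lower and 1 higher. Of 27 spindle genes 4 were lower, and of 19 condensin, cohesin and topoisomerase genes 2 were lower and 3 higher. Only the kinetochore count lay far above the share of all genes (11.9%). Cdk1 read 273, 184 and 289 at 48 h (-0.86 ± 0.21, limma adjusted p = 0.0045). Ribosome biogenesis followed another course, with 26 of 42 genes higher at 24 h, and 15 of 21 ribosomal protein genes higher.

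The largest excesses at 24 h over 48 h were Tmem132e (3.28), Thsd7b (2.85), the Notch ligand Dll3 (2.62), Gfap (2.53), Mycl (2.41), Dpysl4 (2.40), Lrrn2 (2.25) and the progenitor surface protein Prom1 (2.24). Dll3 read 530, 471 and 586 at 24 h and 65.3, 112 and 50.4 at 48 h, and it was also below its 8 h level (-1.85). The largest deficits were genes of macrophages and microglia, namely Pla2g7, Gpr34, Fcgr3, Trem2 and Gpnmb, with the iron exporter Slc40a1, the lipid carrier Apoe and the neuronal Stmn2. Apoe read 1040, 736 and 735 at 24 h and 9197, 7866 and 10591 at 48 h. Of the 28 macrophage and microglia markers 25 were lower at 24 h, as were 27 of 34 lysosomal genes and 15 of 29 young-neuron cytoskeleton genes.

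**Figure D5:**
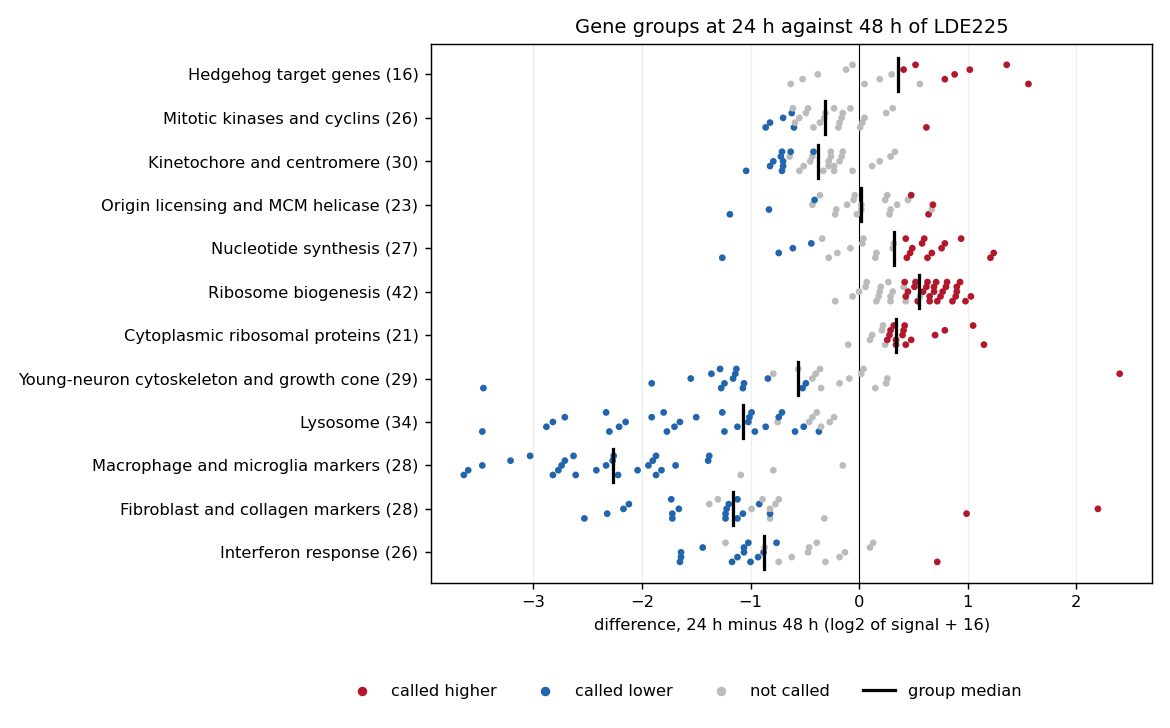
Difference between 24 h and 48 h of drug (log2 of signal + 16) for every measured gene of 12 groups, with 1 point per gene, red where called higher at 24 h, blue where called lower and grey where not called, and a black bar at each group median. Ribosome biogenesis genes lie to the right of 0, and macrophage and lysosomal genes to the left.

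Of 14980 tested genes, 125 were called above the vehicle, 4 h vehicle, 8 h and 48 h arrays alike, and 105 were called below all 4 groups. These comparisons share the 24 h arrays, so the counts are a description, and the 4 h drug arrays were not compared. Gfap and Robo2 belong to the first set, and Nptx1, Cdk1, Rrm1 and Fdps to the second. Nptx1 read 70.0, 62.7 and 84.0 at 24 h, with means of 4807 on the vehicle arrays, 954 at 8 h and 116 at 48 h.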

How the data were processed

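The authors deposited 1 MAS5 signal intensity (linear) for each of 45101 probe sets on 23 arrays, per the submitters' processing notes; the MAS5 version is not given in the sources used here. Arrays share a trimmed mean of 150. Such signals give no counting depth, and the number of arrays limits precision. Probe sets were named from the supplied platform annotation (34958 with 1 symbol, 932 with several, 9211 with none), and 64 control probe sets were left out of the tests. Tests covered the 35069 probe sets that exceeded the 40th percentile of signal on 2 or more arrays, and 14980 genes, each represented by its brightest probe set on average. Values were log2(signal + 16). Group means of all 8 groups were fitted with limma 3.58.1 in R 4.3.3 (eBayes with trend, 15 residual and 8.46 prior degrees of freedom), two-sided, with Benjamini-Hochberg adjustment over all probe sets. On simulated data (34049 probe sets), 97 probe sets changed by a log2 of 1 and 96 by 2, and all other group means were equal. The fit called 51.5% and 81.2% of these. In the real comparison 10182 probe sets were called, which loosens the adjusted threshold, so these shares do not carry over to it.

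The comparison, gene lists and named genes were chosen with earlier results of these data known. Named genes were a fixed set of Hedgehog and cyclin genes (1 of them is not reported here), the 12 largest rises and falls whose groups did not overlap and whose call held in each leave-one-out fit, up to 6 called and 2 other members of each list, the brightest markers of each cell type, and the 8 and 5 largest differences each way against 48 h and 8 h. Genes outside that rule, named after their values were seen, were Zfand6, Pus10, Chrna5, Sfrp1, Smo, Sufu, Mcm6, Ezh2, Abcg1, Hspa5, Hspb1, Ina, Dclk1, Slc32a1, Dcc, Sox1, Sox2, Ptbp1, Igfbp4, P2ry12, Col1a1 and Mfap4. Same-numbered replicates of the 4 comparisons correlated at -0.021 to 0.037 in their deviations. No pairing by number was thus seen, but so few arrays per group cannot exclude it. Alternatives were other offsets, filters, scaling, control arrays, blocks (replicate number, or run of consecutive identifiers in the sample titles) and each array left out. Promoter windows came from RefSeq, GRCm38.p6.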

Additional observations from a re-analysis of the deposited data

Results flagged for a closer look

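The effects at 24 h and 48 h share the vehicle arrays and were compared directly (24 h minus 48 h, limma). Genes higher at 24 h by the largest amounts were Tmem132e (3.28), Thsd7b (2.85), Dll3 (2.62), Gfap (2.53), Mycl (2.41), Dpysl4 (2.40), Lrrn2 (2.25) and Prom1 (2.24). Genes lower at 24 h by the largest amounts were Pla2g7 (-3.82), Gpr34 (-3.66), Fcgr3 (-3.64), Trem2 (-3.60), Slc40a1 (-3.48), Gpnmb (-3.47), Stmn2 (-3.46) and Apoe (-3.44). Macrophage markers summed to 8080 to 12829 at 24 h and 43423 to 60343 at 48 h, and their part in these differences was not tested.

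The actin control probe sets, used in no comparison of genes, gave a mean log2 difference between 3' and 5' ends of 1.65 at 24 h and 1.04 on the vehicle arrays.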

How the results depend on the processing

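The count of probe sets called at 24 h against vehicle (10182) ranged from 7693 with the 4 h vehicle as control to 11074 with all 5 vehicle arrays, and from 8351 to 8788 with 1 array left out. Fitting the replicate number as a block gave 9937, and blocking on the run of identifiers 8343. Against vehicle the run block sets 24 h replicate 1 aside, and leaving that array out gave 8434. Against 48 h the count of 7205 was 4517 with the replicate block and 4912 to 6847 with 1 array left out. Only 48 h replicate 4 carries the replicate number 4, so the replicate block sets that array aside. Leaving that array out gave 4912. Against 8 h the count of 4910 was 1763 when blocked on the run of identifiers and 3266 to 3820 with 1 array left out, the lowest without 8 h replicate 3. The same-numbered arrays did not deviate together. Between the vehicle groups the count of 43 was 23 without the eBayes trend, 127 with only those arrays fitted, 3 with the run block and 15 to 22 with 1 array left out. With the run block, the 8 h comparison sets 24 h replicate 1 alone against the 8 h arrays, and the vehicle groups share no run. Any further cause of the shifts in these counts was not tested.

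Over 422 named genes and all alternatives, 6915 results kept their side of the threshold, and 169 lost and 71 gained a call. A further 3 reversed direction and were called in the main or the alternative fit. All 3 had the 4 h vehicle as control: Cxcr4 (-0.03), E2f3 (-0.05) and Numa1 (0.40). Changes of direction without a call in either fit were counted among the 6915. Quantile normalization moved the median of all genes from 0.10 to 0.05.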

Other observations

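Immune and matrix genes also changed at 24 h, where 19.7% of all genes were called higher and 14.4% lower. In the dead-cell clearance and interferon groups, falls were no more frequent than among all genes. Of 22 genes of dead-cell clearance 10 rose and 3 fell: the scavenger receptor Cd36 read 417, 248 and 379 against 45.3, 44.4 and 43.5 (2.56), the receptor Tyro3 rose (1.94), and its ligand Gas6 fell, with 182, 104 and 196 against 1356, 1287 and 1148 (-2.89). Receptor and ligand thus moved in opposite directions. Of 26 interferon response genes 9 rose (5 without vehicle replicate 1) and 3 fell (1 without vehicle replicate 3 and 1 with the run of array identifiers as a block), among them the GTPase Igtp (1.68) and the RNA sensor Ifih1 (-1.47). Of 24 chemokine genes 9 rose, but 2 to 5 did so without vehicle replicate 1, vehicle replicate 3, 24 h replicate 2 or 24 h replicate 3. Of 21 metalloproteinase genes and inhibitors 7 rose, led by Mmp24 (2.89), or 4 with the run of identifiers as a block. In these counts too the run block sets 24 h replicate 1 aside.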
